A study of Mus musculus with 9 samples.

Results

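Myoid smooth muscle cells of the mouse epididymis were taken as the cells in which at least 3 of the genes Acta2, Myh11, Tagln, Cnn1 and Des were detected, with 8 or more UMIs over the 5 genes. A UMI (unique molecular identifier) stands for 1 captured transcript. Cells with 3 or more of the endothelial genes Pecam1, Cdh5, Emcn, Flt1 and Kdr were left out. Of 42087 cells that passed the filters on genes, UMIs and mitochondrial UMIs, 485 (1.15%) were members. They came from 9 single-cell RNA-seq libraries of untreated C57BL/6 mice, the caput, corpus and cauda epididymis of 1 pool at 42 days of age (P42) and of 2 pools at 56 days (P56 replicate 1 and P56 replicate 2). Each pool held the tissue of 5 mice, so a library is a mixture of animals. P-values of the tests between segments of members rest on how segment differences vary between pools. In the tests of single genes this variation is estimated in part from all other genes. A very small p-value there does not measure the spread of that gene alone. The age tests had 1 pool at P42 and assume that its libraries vary like those at P56. Sperm had not been removed from the tissue.

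The epididymal duct is wrapped in layers of smooth muscle that contract in slow waves and move sperm from the caput to the cauda, where the muscle coat is thickest and is also driven by nerves. Smooth muscle cells shorten when calcium-calmodulin activates myosin light chain kinase, which phosphorylates the light chains of myosin and lets it slide along alpha-smooth muscle actin. Nitric oxide and cyclic GMP relax them. The same contractile genes are used by the smooth muscle cells and pericytes around blood vessels, called mural cells.

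The members were unevenly spread over the libraries. The P42 caput held 161 members, the P42 corpus 38 and the P42 cauda 73. P56 replicate 1 held 56, 15 and 70 in the same order of segments, and P56 replicate 2 held 29, 9 and 34. The corpus of P56 replicate 2, with fewer than 10 members, was left out of every fit across genes, so these fits used 8 libraries. Members were 1.86% ± 1.73 of caput cells, 0.450% ± 0.337 of corpus cells and 1.24% ± 0.478 of cauda cells (SD, n = 3). The corpus had the lowest share in each of the 3 pools, while caput and cauda changed order between pools. A test over the 3 segments missed the threshold (exact permutation within pools, two-sided, p = 0.139, smallest possible p 0.0278). The caput alone ranged from 0.591% to 3.83%. Without the P42 pool the caput was 0.199 percentage points below the cauda instead of 0.612 above it. Depth differed too, with median UMIs per cell of 5904, 5848 and 6438 in the caput, 3446, 4446 and 4926 in the corpus and 3088.5, 6429 and 7644 in the cauda. In cells thinned to 1000 UMIs, 3 of the 5 genes sufficed for the rule. The shares were then 0.507%, 0.154% and 0.439% (exact permutation within pools, two-sided, p = 0.0556). The recovery of muscle from the tissue was not measured, so fewer cells and poorer release of cells cannot be told apart.

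**Figure D1:**
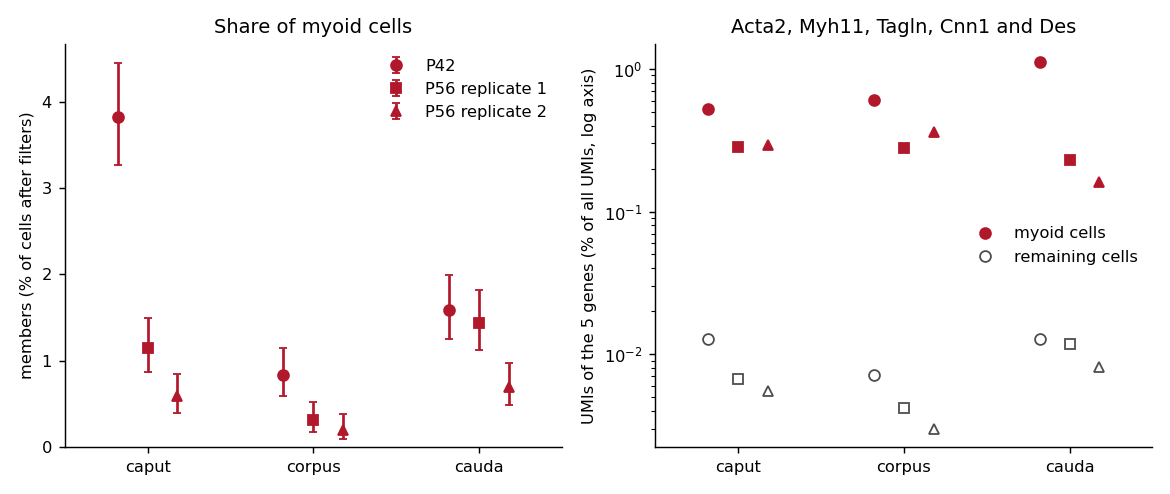
Left, members as a percentage of the cells of each library, with 95% Clopper-Pearson intervals that cover counting error only; right, UMIs of the 5 genes of the rule as a percentage of all UMIs in members (filled) and in the remaining cells (open), on a log axis. The P42 caput has the largest share of members (3.83%), and in every library the filled point lies above the open one, as the rule sets.

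The rule decided the levels of its 5 genes, which are given as a description only. Of the members, 237 had 3 of the 5 genes, 166 had 4 and 82 had all 5, and the median member had 20 UMIs over them. Just inside the limit, 71 members had 8 to 10 UMIs, and just outside it, 120 cells with at least 3 of the genes had 5 to 7. In the P42 cauda the 5 genes took 1.11% of the UMIs of members, and 32 of 73 members had all 5. In the P56 cauda they took 0.229% in replicate 1 and 0.160% in replicate 2, with all 5 genes in 2 of 70 and 0 of 34 members. The members of the P56 cauda thus lay closer to the limit, with medians of 14 and 11 UMIs over the 5 genes against 41 at P42.

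Genes outside the rule were compared with the label. CPM stands for UMIs of a gene summed over the members of a library and scaled to a total of 1000000 UMIs, and libraries are given in the order P42, P56 replicate 1, P56 replicate 2. Of 24 listed genes of the contractile apparatus, 22 were at least 2 times as high in members as in the remaining cells of the same libraries, where 11.5% of 15584 genes with 3 or more UMIs were. The median ratio was 7.62, beside 1.07 over all these genes. These values describe the members and were not tested, because contractile genes are expressed together with the genes that chose the cells.

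Myl9, the regulatory light chain that is phosphorylated at the start of contraction, was at 1463, 731 and 991 CPM in the caput, 1750.0, 717 and 656 in the corpus and 3129, 601 and 328 in the cauda. The remaining cells had 7.24 to 53.0 CPM, so that the ranges did not overlap. The mean over 8 libraries was 41.0 times as high in members. Mylk, the myosin light chain kinase itself, was 22.5 times as high, at 171 to 2576 CPM against 18.8 to 57.3. Tpm2, a tropomyosin that lies along the actin filament, was 39.3 times as high, and Cald1, the actin-binding caldesmon, 20.7 times. Lmod1, which starts actin filaments in smooth muscle, was 37.5 times as high, and Synpo2, an actin-bundling protein of the dense bodies, 51.3 times. Fhl1 and Actg2 were the contractile genes under 2 times, at 1.14 and 1.12 times. For Actg2, the gamma actin of visceral smooth muscle, this mean hides opposite relations in the segments, which are given further on.

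**Figure D2:**
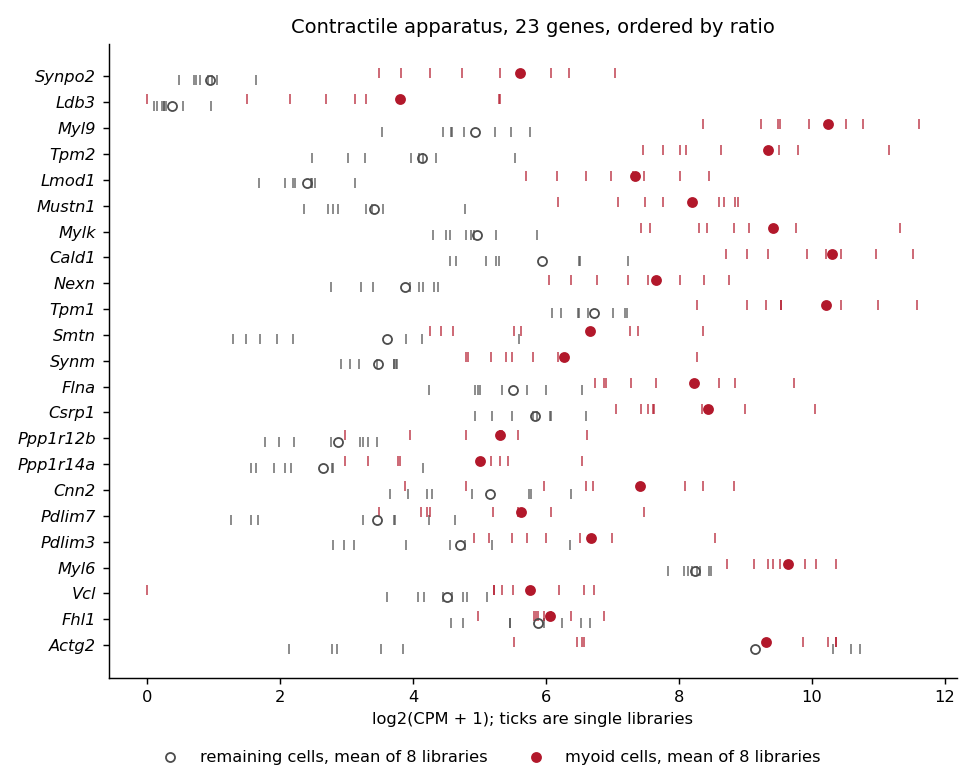
Levels of 23 of the 24 contractile genes as log2(CPM + 1), in members (red) and remaining cells (grey); ticks are the 8 libraries with at least 10 members and circles their means. For all genes shown but Fhl1 and Actg2 the mean is at least 2 times as high in members, and for Myl9 the ranges of the 2 sets do not overlap.

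Among the 15 genes with the highest ratios above 50 CPM, Rergl, a small GTPase-like protein, reached 55.6 times and Map3k7cl 58.2 times. Acta1, the actin of skeletal muscle, had the highest ratio (78.5), but 263 of its 283 UMIs came from the P42 cauda, at 673 CPM, and it was at 0 to 37.5 CPM in the other libraries. In that library 19 of 73 members carried it. Of other genes of skeletal muscle fibres, the creatine kinase gene Ckm had 14 UMIs over all members, all in the P42 cauda (35.8 CPM), and the myosin gene Myh1 had 0. Tnnt2, the troponin T of heart muscle, was 43.8 times as high, at 0 to 126 CPM.

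Regulators and signalling genes of smooth muscle were also higher in members. Myocd, the coactivator that switches on contractile genes together with serum response factor, was 54.0 times as high, with 41.2, 18.1 and 8.77 CPM in the caput, 132, 0 and 0 in the corpus and 61.4, 10.9 and 10.3 in the cauda. Of 14 listed transcription factors with 3 or more UMIs, 9 reached 2 times, among them Mef2c (6.58) and Nr2f2 (4.04). Of 18 genes of calcium handling and ion channels 14 did, including Casq2, a calcium store protein (12.4), and Kcnmb1, the beta subunit of the BK potassium channel (20.3). Of 24 genes of contractile and relaxant receptors and their signalling 13 did. Among these, Gucy1a1 and Gucy1b1, the subunits of soluble guanylate cyclase, were 17.1 and 23.5 times as high, Prkg1, the kinase that cyclic GMP activates, 11.4 times, and Pde5a and Pde3a, which break down cyclic nucleotides, 18.2 and 19.2 times. Gucy1a1 and Pde3a were much higher in members with vascular mural genes than in the other members, as given further on.

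From the same list, P2rx1, the ATP-gated channel of sympathetic transmission, was at 2.74, 5.17 and 13.2 CPM in the caput, 16.6, 8.97 and 0 in the corpus and 87.0, 7.28 and 23.9 in the cauda. The cauda exceeded the caput in every pool, but the P56 levels rest on only a few UMIs per library. The gene did not pass the filter of the segment fit and was not tested there. Ednra, the endothelin receptor, was 10.5 times as high as in the remaining cells, and the oxytocin receptor gene Oxtr 0.607 times. Of the proteins that tie muscle to its matrix, 11 of 15 reached 2 times, with Itga8 at 19.0 times, Sgca (alpha-sarcoglycan) at 19.8 and Dmd (dystrophin) at 7.31.

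The contractile genes are known to be switched on through the CArG box, the binding motif of serum response factor, which is a pair of C bases, 6 bases that are each A or T, and a pair of G bases. RefSeq promoter windows (GRCm38.p6) were found for 24 of 29 genes of the rule and the contractile list, and the 250 bases before the start were searched on both strands, which give the same matches because the motif is its own reverse complement. A box was found in 6 of the 24 genes (25%) and in 439 of 27025 gene symbols (1.62%). These genes were Myl6, Myl9, Vcl, Cnn2, Ldb3 and Fhl1. None of the 3 genes of the rule that had a window held one, which says only that these letters are not in the window. The stretches around the box of 4 of these genes are shown so that the motif can be compared between them. Ldb3, 43.8 times as high in members but with only 35 UMIs there, and Fhl1 are not shown. Capitals mark the box.
Myl9: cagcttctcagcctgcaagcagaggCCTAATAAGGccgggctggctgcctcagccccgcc
Myl6: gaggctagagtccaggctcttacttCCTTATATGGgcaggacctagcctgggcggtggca
Vcl: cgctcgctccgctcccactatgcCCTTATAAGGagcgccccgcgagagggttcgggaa
Cnn2: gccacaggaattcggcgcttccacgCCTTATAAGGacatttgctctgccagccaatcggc
They lie at chr2:156775278-156775337, plus strand (Myl9), chr10:128493025-128493084, minus strand (Myl6), chr14:20929148-20929205, plus strand (Vcl) and chr10:79988519-79988578, plus strand (Cnn2), all within the 250 bases before the annotated start. Vcl and Cnn2 share the same box, and the ratios of the 4 genes in members were 41.0, 2.66, 2.45 and 4.87. A match is a description of the sequence, and the data hold no measurement of factor binding.

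Members carried RNA of other cells, and this stands beside each comparison of segments and ages. Their summed level of the 8 secretory genes of principal cells was 36739 CPM in the P42 caput, where the remaining cells had 56271, and 98326 CPM in the P56 replicate 1 caput against 119296. Of the 485 members, 244 met the criterion used for fibroblast cells (at least 4 of 7 genes and 8 UMIs). Of all members, 62.3% had 3 or more of 6 epithelial genes detected. Only 36 members had fewer than 3 genes of each of the endothelial, fibroblast, epithelial, macrophage, T cell and sperm lists. These 36 also had fewer than 3 UMIs over the sperm genes Prm1 and Prm2. The P42 cauda also stood apart, because 4303 of its 4517 remaining cells met that criterion, and the summed fibroblast genes were at 42966 CPM in its remaining cells against 414 to 7529 in the other libraries. Schwann cell, mesothelial and adipocyte genes were at 0 to 36.2 CPM in members. Of the barcode sequences, 143 occurred in more than 1 library, and no member shared its barcode with another member. Doublets were not called here.

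Vascular mural cells could meet the rule, and a list of 12 mural genes was used to look for them. Of the 485 members, 81 had 3 or more of these genes detected. They made up 26.7%, 12.5% and 20.7% of the members of the caput libraries. In the corpus they made up 26.3% of members at P42 and 0% of 15 in P56 replicate 1, where the exact interval reaches 21.8%. The corpus library with 9 members, not used in the test, had 1 such cell (11.1%, exact interval 0.281% to 48.2%). In the cauda they made up 19.2% at P42 and 0% of 70 and of 34 members at P56, where exact intervals reach 5.13% and 10.3%. Over the segments, exact permutation within pools gave a two-sided p of 0.0556, the smallest these values allow with the tied shares of 0. With at least 2 genes of the list in place of 3, where p could reach 0.0278, exact permutation gave p = 0.139. These cells had a median of 5136 UMIs in all, against 6116 in the other members, and 46 UMIs over the 5 genes of the rule against 17. Within the P42 libraries, which held 67 of the 81, the medians were 4959 against 5127 UMIs and 50 against 24.

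The levels of the mural group could be set beside those of the other members in the 3 P42 libraries, which hold at least 10 cells of each. Detection of the listed genes chose the group, and the other genes named here were picked by their ratio, so no test was made. Rgs5, a pericyte regulator of G protein signalling, was at 1731, 659 and 768 CPM in the caput, corpus and cauda of the group and at 101, 48.0 and 92.2 in the other members. Notch3, the Notch receptor of vascular smooth muscle, had 35 UMIs in the group and 3 in the other members of these libraries. Ndufa4l2 was 23.3 times as high in the group, while Kcnj8 and Abcc9, the subunits of a potassium channel of pericytes, had only 4 and 1 UMIs there and 21 and 8 in the other members. Outside the list, Gucy1a1 was 10.5 times, Pde3a 9.73 times, Olfr558 11.8 times, Lhcgr, the receptor of luteinizing hormone, 13.0 times and Npy1r, the receptor of the sympathetic transmitter neuropeptide Y, 4.98 times as high. Map3k7cl was 5.68 times as high in the group. Olfr558, Npy1r, Map3k7cl and Rergl are also among the 15 genes that stood highest in members over the remaining cells. Rergl was at 356, 374 and 435 CPM in the group and at 59.7, 120.0 and 128 in the other members.

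The other members had their own genes. Cldn11, a tight junction claudin, was at 169, 168 and 19.8 CPM in them and at 7.33, 0 and 0 in the mural group. Hhip, a receptor that binds and restrains hedgehog ligands, was at 43.9, 184 and 112 CPM and had 0 UMIs in the group, against 93 in the other members. Mfap4, a protein of elastic microfibrils, was at 470.4, 424 and 224 CPM against 55.0, 17.8 and 34.4. The matrix proteoglycan Vcan and the amine oxidase Maob were 0.0750 and 0.101 times as high in the group as outside it. Cnn1 (calponin), a gene of the rule, was at 322, 359.9 and 1598 CPM in the other members and at 179.7, 35.6 and 183 in the group. Myh11, the smooth muscle myosin heavy chain, was at 1646, 1426 and 1604 CPM in the group and at 704, 944 and 2738 in the other members, so that the group was higher in caput and corpus and lower in the cauda.

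**Figure D3:**
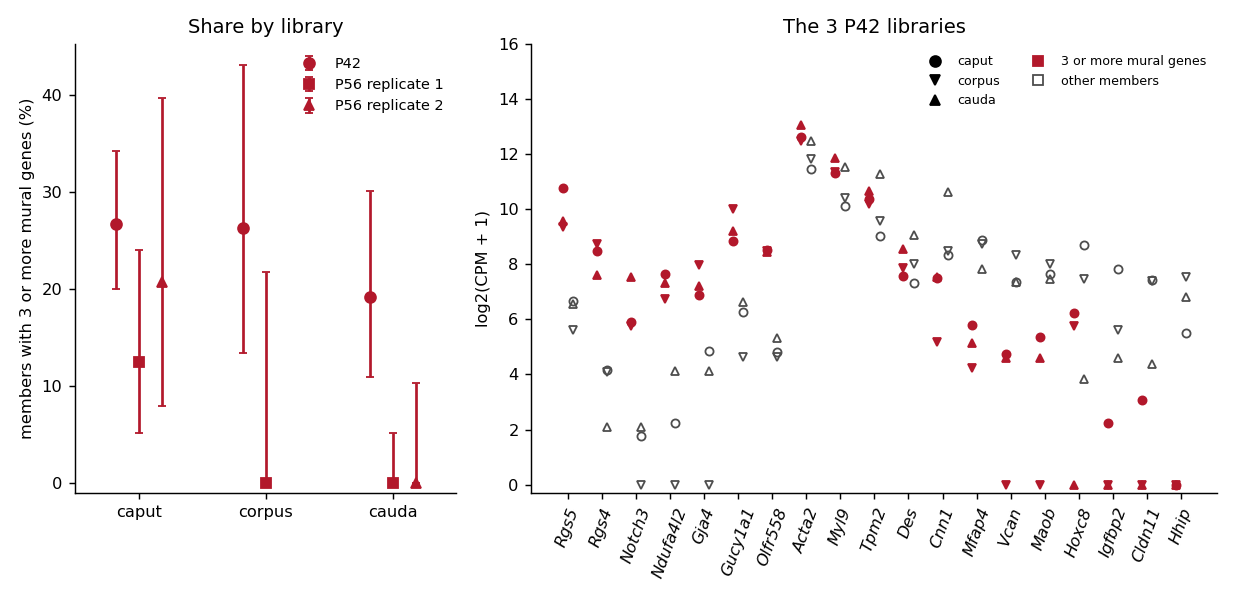
Left, percentage of members with 3 or more of the 12 mural genes, with 95% Clopper-Pearson intervals, in the 8 libraries with at least 10 members; right, log2(CPM + 1) of selected genes in these members (filled) and the other members (open) of the 3 P42 libraries. Rgs5 to Olfr558 are higher in the mural group in all 3 libraries, and so are Acta2 and Myl9, by a smaller margin. Tpm2 and Des change order between libraries, and Mfap4 to Hhip are lower in the group.

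Segments were then compared on the summed UMIs of the members of each library (quasi-likelihood test of edgeR), with the pool as a block. Of 5333 genes tested, 341 (6.39%) passed an adjusted p of 0.05 with a log2 range of at least 1 between segments, and the caput was the highest segment of 183 of them (3.43%), the corpus of 55 (1.03%) and the cauda of 103 (1.93%). Between pairs of segments, 379 genes (7.11%) were called for caput against cauda (3.79% higher and 3.32% lower in the caput), 171 (3.21%) for caput against corpus and 31 (0.581%) for corpus against cauda. Without the P42 cauda library alone, 597 genes were called over the segments and 611 for caput against cauda. All 8 secretory genes of principal cells were among the 341. Of 8 tested fibroblast genes 3 were called, all highest in the cauda (Dcn, Col3a1 and Clec3b), and 4 were lower in the caput than in the cauda, with a median log2 fold change of -2.01 beside 0.00 over all genes. The summed fibroblast genes of members were at 3715, 1274 and 758 CPM in the caput and at 31043, 2471 and 1186 in the cauda, and their part in the segment differences was not tested. Of 362 tested genes that were at least 2 times as high in members, 15 were called (4.14%), and of 2044 below the level of the remaining cells 271 were (13.3%). Of the 24 contractile genes 1 was called (Actg2), of 9 calcium and channel genes 1 (Gja1, a gap junction protein that was lower in members than in the remaining cells), and of 4 mural genes, 5 transcription factors and 7 receptors none. A gene that missed the threshold is not shown to be level over the segments.

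Hox genes, the transcription factors that mark position along the body and the genital ducts, differed between segments in both directions. Of 15 tested Hox genes 6 were called, 4 of them highest in the caput, 1 highest in the corpus and 1 highest in the cauda, beside the 6.39% of all genes. Their median log2 fold change of caput against cauda was 1.15, beside 0.00 over all genes. Hoxc8 was at 328, 139.5 and 101 CPM in the caput, 138, 26.9 and 18.7 in the corpus and 10.2, 1.82 and 0 in the cauda. The caput lay above the corpus in each pool and the cauda lay below both. Its log2 fold change was 5.44 ± 0.52 (SE) for caput against cauda (adjusted p = 6.69e-06) and 3.81 ± 0.63 for corpus against cauda (adjusted p = 0.0096). It missed the threshold for caput against corpus (1.62 ± 0.47, adjusted p = 0.0948). Without the pool block no gene was called for corpus against cauda, and Hoxc8 stayed called for caput against cauda (5.26, adjusted p = 0.00466).

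Hoxc9 was at 67.7, 43.9 and 52.6 CPM in the caput, 127, 17.9 and 18.7 in the corpus and 10.2, 5.46 and 0 in the cauda. The cauda was lowest in every pool (3.06 ± 0.64 for caput against cauda, adjusted p = 0.0075), while caput and corpus changed places between pools. Hoxa7 was at 107, 43.9 and 52.6 CPM in the caput, 33.1, 0 and 0 in the corpus and 10.2, 7.28 and 3.42 in the cauda, with a log2 fold change of 2.95 ± 0.58 for caput against cauda (adjusted p = 0.00459). Hoxc6 showed the same order at lower levels, at 25.8 to 73.2 CPM in the caput and 3.42 to 10.2 in the cauda (2.74 ± 0.64, adjusted p = 0.0151). Hoxc8, Hoxc9 and Hoxa7 were still called for caput against cauda with any 1 pool left out, and Hoxc6 was not (log2 fold change 2.699 to 2.89, adjusted p of 0.0510 to 0.103). With at least 15 UMIs over the 5 genes of the rule, Hoxc9 (2.32, adjusted p = 0.135) and Hoxc6 (3.32, adjusted p = 0.0801) missed the threshold.

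Hoxa10 ran the other way. It was at 0, 5.17 and 4.38 CPM in the caput, 38.6, 0 and 0 in the corpus and 217, 12.7 and 20.5 in the cauda. The cauda was above the caput in each pool, but 85 of the 98 UMIs of cauda members came from the P42 library. In P56 replicate 1 there were 7 UMIs in the cauda and 2 in the caput, and in P56 replicate 2 there were 6 and 1. The fit called it at an adjusted p of 0.0062, and at 0.0754 without the pool block it missed the threshold. It was not tested without the P42 pool or the P42 cauda, where it was too low. Hoxc10 had 0 UMIs in caput members, 14 in corpus members and 21 in cauda members, so that the cauda was at least 9.70-fold higher, taking 3 counts over all caput members as the floor (adjusted p = 0.0285). Hoxd10, Hoxa11 and Hoxd11 had 34, 29 and 16 UMIs in the cauda and 2, 1 and 0 in the caput, but were too low to be tested.

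Together, 12 Hox genes had 10 or more UMIs in members and were at least 2 times as high there as in the remaining cells. A gene can pass these limits through the segment where it is high, as all 16 UMIs of Hoxd11 came from the cauda, so the directions of the 12 were not counted. No gene of the Hoxb cluster was among the 12. Hoxb7, at 38.4 to 364 CPM, was higher in the remaining cells than in members in all 9 libraries.

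**Figure D4:**
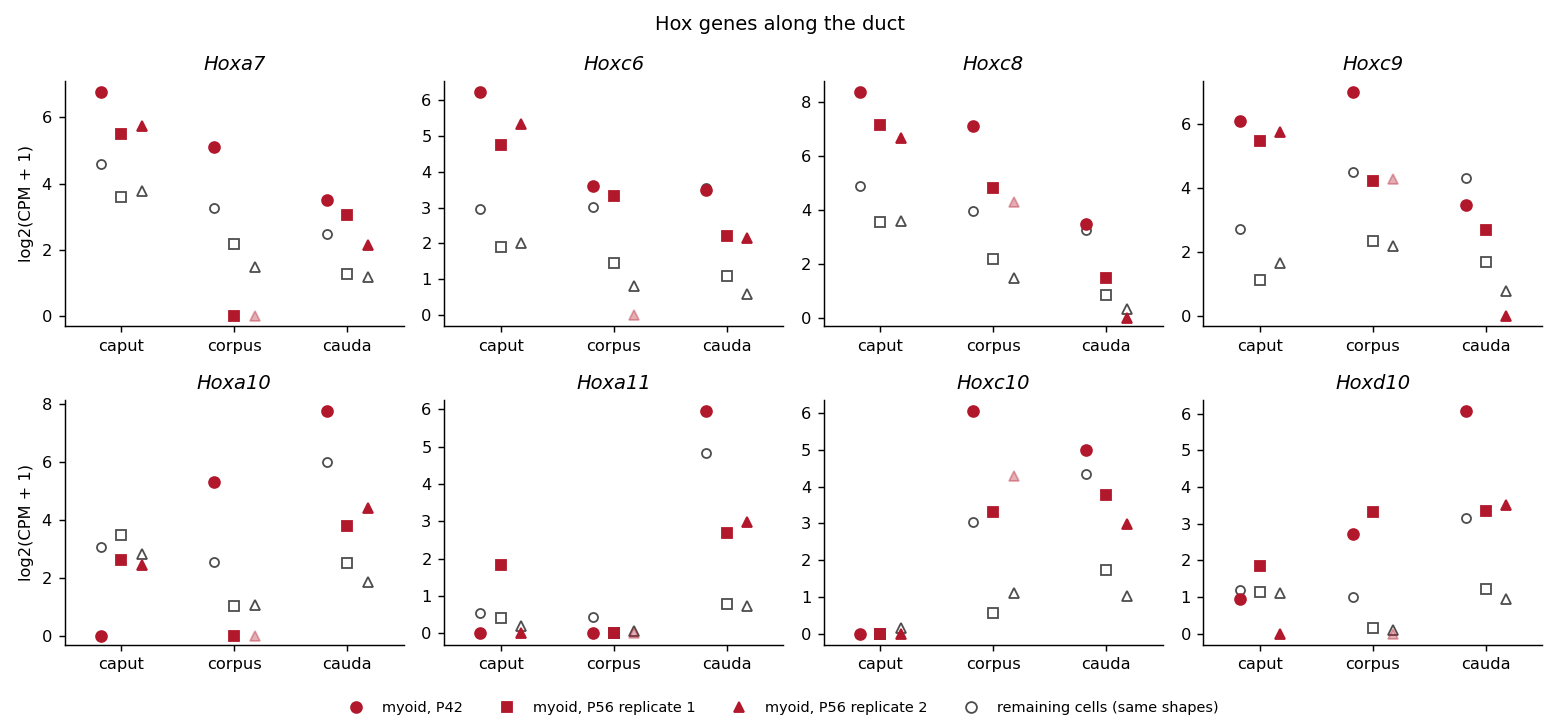
CPM on a log2(CPM + 1) axis of 8 Hox genes in members (filled; the paler triangle is the corpus library with 9 members) and in the remaining cells (open) of each library. Hoxa7, Hoxc6, Hoxc8 and Hoxc9 lie higher in the caput than in the cauda in each pool, and Hoxa10, Hoxa11, Hoxc10 and Hoxd10 lie higher in the cauda than in the caput.

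The remaining cells also held Hox RNA, and the segment difference of members was tested against theirs. At an adjusted p of 0.05 and a log2 difference of at least 1, 220 of 17387 genes were called (1.27%, with 1.12% positive and 0.15% negative). The p-values of this test match a normal distribution of the difference over its SE. A gene's own spread between pools hardly enters them, so very small values do not measure that spread. The caput against cauda difference of members exceeded that of the remaining cells by a log2 fold change of 3.30 ± 0.62 for Hoxc8 (adjusted p = 2.06e-05), 4.67 ± 0.66 for Hoxc9 (adjusted p = 1.53e-09) and 2.96 ± 0.74 for Hoxc6 (adjusted p = 0.00656), and it was more negative by 3.79 ± 0.76 for Hoxa10 (adjusted p = 0.000125). In the remaining cells Hoxc9 was at 1.18 to 5.65 CPM in the caput and 0.715 to 18.9 in the cauda. Hoxa7 was not called (0.63 ± 0.65, adjusted p = 0.904). Without the P42 pool, Hoxc9 alone of these stayed below 0.05 (3.95, adjusted p = 0.0413). In the same setting the log2 difference was 2.66 for Hoxc8, 1.57 for Hoxc6 and -2.74 for Hoxa10. Without the P42 cauda library alone, Hoxc9 (3.35, adjusted p = 0.0235) and Hoxa10 (-3.96, adjusted p = 0.0162) were called, and Hoxc8 (2.75, adjusted p = 0.658) and Hoxc6 (1.63, adjusted p = 0.971) were not. Against cells with fibroblast markers none of the 5 was called (adjusted p of 0.473 to 1), and in those cells Hoxc8 ran from 153, 129.9 and 89.8 CPM in the caput to 8.86, 3.49 and 0.871 in the cauda.

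Genes of inhibin beta subunits, which form the activin ligands of the TGF-beta family, were among the called genes. Inhba, the beta A subunit, was at 177, 72.3 and 70.1 CPM in the caput, 77.3, 8.97 and 0 in the corpus and 92.1, 7.28 and 6.84 in the cauda. It was highest in the caput in every pool (1.91 ± 0.47 for caput against cauda, adjusted p = 0.0218), and it missed the threshold without P56 replicate 1 (adjusted p = 0.255) or replicate 2 (adjusted p = 0.0977), without the pool block (1.55, adjusted p = 0.461) and with at least 15 UMIs over the 5 genes of the rule (1.48, adjusted p = 0.188). Inhbb, the beta B subunit, had 62 UMIs in caput members, 1 in corpus members and 0 in cauda members, which puts the caput at least 14.9-fold above the cauda (adjusted p = 0.0144, and 0.207 without P56 replicate 1). The remaining cells of the caput also had Inhbb, at 8.38 to 14.2 CPM. Neither Inhba nor Inhbb was among the genes whose caput against cauda difference was called as different from that of the remaining cells. Among 16 tested paracrine factors these were the only calls of the test over segments (6.39% of all genes were called), and Igf1 and Rspo3 were higher in the cauda when caput and cauda were compared directly (3.32% of all genes were).

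Cldn11, Cyp1b1 and Fbln5 were also highest in the caput. Cldn11 was at 129, 38.8 and 43.8 CPM in the caput, 116, 17.9 and 75.0 in the corpus and 15.4, 1.82 and 0 in the cauda. Caput and corpus overlapped and the cauda was lowest in each pool (3.55 ± 0.56 for caput against cauda, adjusted p = 0.000854), also with any 1 pool left out, but it missed the threshold without the pool block (3.42, adjusted p = 0.0556). Fbln5, a protein of elastic fibres, was at 39.5 to 116 CPM in the caput and 3.64 to 25.6 in the cauda (2.45 ± 0.48, adjusted p = 0.00459). Cyp1b1, a cytochrome P450 that acts on steroids and retinoids, was at 48.2 to 137 CPM in the caput and 6.84 to 43.5 in the cauda (2.51 ± 0.58, adjusted p = 0.0144). Fbln5 and Cyp1b1 missed the threshold without P56 replicate 1 (adjusted p = 0.0669 and 0.107) and without the pool block (adjusted p = 0.0534 and 0.1896), and Fbln5 did so with at least 15 UMIs over the 5 genes of the rule (1.91, adjusted p = 0.163).

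In the cauda, Smoc2, a matrix protein that binds calcium, was at 491, 65.6 and 103 CPM, against 70.4, 67.2 and 17.5 in the caput and 132, 71.7 and 56.2 in the corpus. In P56 replicate 1 the segments were nearly level, and this kept it outside the genes with the same order in every pool (log2 fold change of caput against cauda -1.97 ± 0.48, adjusted p = 0.0197). It missed the threshold without P42 (adjusted p = 0.201), without the P42 cauda library alone (-1.14, adjusted p = 0.112), without P56 replicate 2 (adjusted p = 0.108) and without the pool block (adjusted p = 0.148). It also missed the threshold with the library scaling factors set to 1 (-1.79, adjusted p = 0.0813). With at least 15 UMIs over the 5 genes of the rule it did so too (-1.82). Smoc2 had the smallest adjusted p of the genes that differed from cells with fibroblast markers, by a log2 difference of -3.69 ± 0.39 (adjusted p = 1.99e-05). In those cells the caput was above the cauda (199.5, 145 and 102 CPM against 69.1, 33.6 and 14.4). Of 10446 genes in that comparison 5 were called (0.0479%). In the P42 cauda the cells with fibroblast markers were nearly all of the remaining cells (4303 of 4517). Sh3bgr was at 189, 47.3 and 30.8 CPM in the cauda, 68.6, 59.4 and 39.5 in the caput and 22.1, 8.97 and 75.0 in the corpus, the last from the library with 9 members, and passed over the 3 segments at an adjusted p of 0.0482.

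Tnc and Top2a were called as highest in the corpus, where most of their UMIs at P42 came from single cells. Of 29 UMIs of Top2a, a topoisomerase of dividing cells, in the P42 corpus, 24 were in 1 of 38 members, and in P56 replicate 1 all 18 were in 1 of 15. Of 20 UMIs of Tnc (tenascin C) in the P42 corpus, 14 were in 1 member. Tnc was also higher in the cauda than in the caput (log2 fold change of caput against cauda -3.61 ± 0.87, adjusted p = 0.0192), with 15, 6 and 6 UMIs in 7, 5 and 4 cauda members against 5, 0 and 0 UMIs in the caput. This call held without either P56 pool (adjusted p of 0.0464 and 0.0499), was lost without the pool block (adjusted p = 0.106) and with at least 15 UMIs over the 5 genes of the rule (adjusted p = 0.264), and was not tested without the P42 pool or the P42 cauda. Cnn1 was called as highest in the cauda, but it helped to choose the members and counts only as a description, at 1282, 206 and 191 CPM in the cauda and 286, 158 and 96.4 in the caput.

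Actg2 differed between segments in one way in members and in another way in the cells around them. Members had 930.2, 1212 and 1315 CPM in the caput, 93.8, 44.8 and 319 in the corpus and 1323, 87.4 and 92.3 in the cauda. In the remaining cells the caput had 1275, 1688 and 1544 CPM, the corpus 5.89, 3.38 and 2.07 and the cauda 13.5, 6.27 and 10.5. Members of the caput thus lay below their surroundings in each pool, and members of corpus and cauda lay above theirs in each pool. The caput against cauda difference was smaller in members by a log2 fold change of 5.04 ± 0.24 (adjusted p = 3.26e-96). This adjusted p hardly draws on the gene's own spread between pools. The difference held with each pool left out (3.77 to 5.72 smaller). The caput against cauda difference of members was also smaller than in cells with fibroblast markers (by 4.86, adjusted p = 3.25e-05). Within members the caput exceeded the corpus (4.79 ± 0.93, adjusted p = 0.00753) and missed the threshold against the cauda (2.11 ± 0.69, adjusted p = 0.0965). The caput was called as higher than the cauda without the P42 pool (log2 fold change 3.57, adjusted p = 1.15e-06), without the P42 cauda library alone (3.45, adjusted p = 6.99e-08), without the filter on low counts (adjusted p = 0.000225) and by DESeq2 (adjusted p = 0.0374), and without either P56 pool it was not (1.37 and 1.38, adjusted p of 0.765 and 0.494). How much Actg2 of caput members came from RNA of the surrounding cells was not tested.

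**Figure D5:**
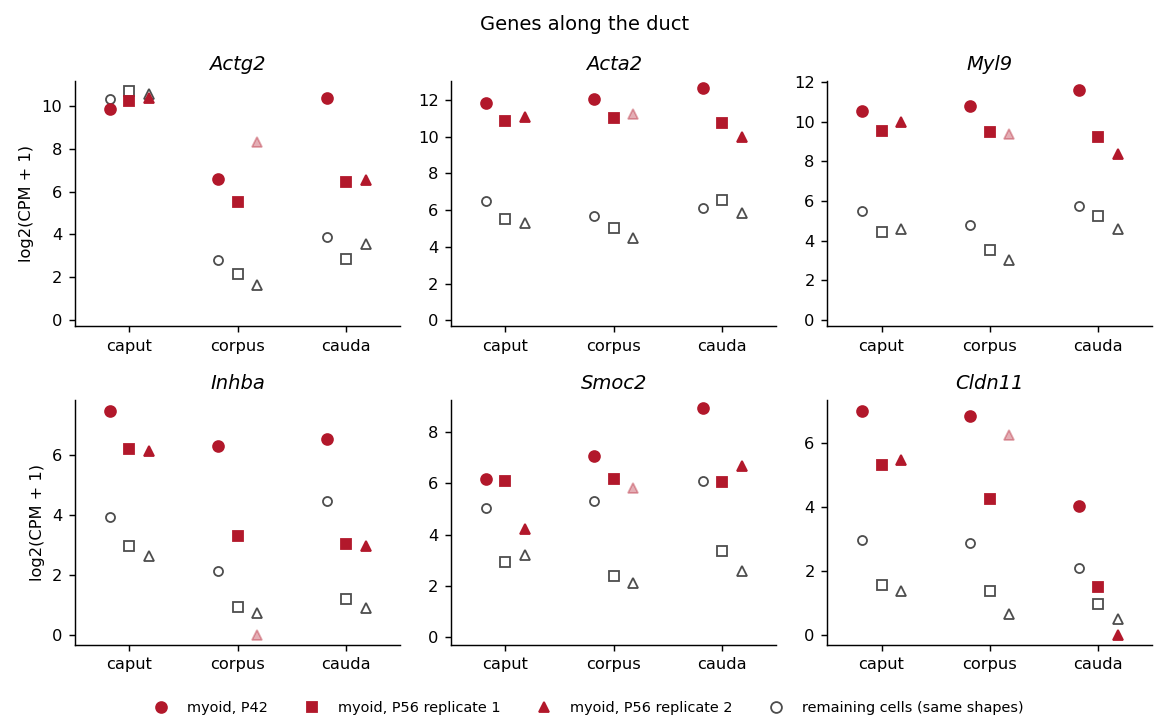
Log2(CPM + 1) of 6 genes in members (filled; paler where the library held 9 members) and in the remaining cells (open). Actg2 is at 1275 to 1688 CPM in the remaining cells of the caput, above members, and at 2.07 to 13.5 CPM elsewhere, below them, whereas Acta2 and Myl9 are higher in members in all libraries.

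For other lists, the calls against the remaining cells changed when the P42 pool was left out. Of 19 genes of basement membrane and elastic matrix 7 were called (1.27% of all genes were), all with a caput against cauda difference that was higher in members, among them Eln (1.75 ± 0.38, adjusted p = 0.000601), Lama2 and Fbn1. Without the P42 pool, where 52 of 18165 genes were called in all, none of the 19 was. Without the P42 cauda library alone, where 73 of 16948 genes were called in all, none of the 19 was called either. Of 30 paracrine factors 8 were called in the same direction, with 2 without the P42 pool (Igfbp5 and Tgfb2) and 3 without the P42 cauda alone (these and Sfrp1). Igfbp5, which binds insulin-like growth factors, differed by 2.32 ± 0.26 (adjusted p = 2.47e-15), at 111 to 373 CPM in caput members and 17.1 to 849 in cauda members, and stayed called with each pool left out and without the P42 cauda alone. The transcription factor genes Tcf21, Zeb2 and Nr2f2 were called with differences of 3.47 ± 0.40, 1.68 ± 0.42 and 1.62 ± 0.24 in the same direction. Without the P42 pool only Nr2f2 of the 3 was called, without P56 replicate 1 only Tcf21, and without the P42 cauda alone both of these. Of the 24 contractile genes 3 were called (Actg2, Pdlim7 and Mustn1), with 6 without the P42 pool, Myl9, Cald1, Tpm2 and Flna among them, and 7 without the P42 cauda alone, Myl9, Tpm2 and Flna among them.

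Stress genes differed between segments in members. Of 16 immediate early and dissociation genes 9 were higher in the cauda than in the caput in members (3.32% of all genes were), for example Atf3 at 1758, 2391 and 2752 CPM in the cauda and 979, 233 and 193 in the caput, and none of the 16 was called as different from the remaining cells in this contrast, although Fos passed the adjusted p with a log2 difference under 1 (0.72 ± 0.19, adjusted p = 0.0117). Mitochondrial genes took 7.21% ± 1.12 of UMIs in caput members, 17.2% ± 3.55 in corpus members and 15.2% ± 5.88 in cauda members (SD, n = 3; exact permutation within pools, two-sided, p = 0.0278, the smallest the design allows, and 0.0556 adjusted over 4 such tests, which misses the threshold). The remaining cells of the same libraries had 6.66%, 18.8% and 14.6%, and none of 10 tested mitochondrial genes was called over segments in members.

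The ages were compared within each segment, with 1 pool at P42, so age and pool cannot be told apart. No segment had a replicate at P42, and the P42 libraries were assumed to vary like the P56 libraries. The balance of directions depended on the method. In caput and in cauda members edgeR called more genes lower than higher at P56, and DESeq2 called more genes higher than lower. Of 6680 genes, 65 (0.973%) were called in caput members, 0.329% as higher and 0.644% as lower at P56. Corpus members gave 123 (1.84%), 0.988% higher and 0.853% lower, from 1 library at each age, so that this contrast has no replicates of its own and assumes that corpus libraries vary like those of the other segments. Cauda members gave 1373 (20.6%), 9.49% higher and 11.1% lower. DESeq2 called fewer, with 37 for caput members, 56 for corpus members and 242 for cauda members (2.26% of the genes higher and 1.36% lower), and in the cauda it gave no adjusted p for 3497 of the 6680 genes. In the cauda 20 of 24 contractile genes were lower at P56 (11.1% of all genes were) and none was higher, with a median log2 fold change of -2.38 beside -0.06 over all genes. By DESeq2 10 of the 24 were lower and none was higher (median -2.54), with no adjusted p for 3. The makeup of the members moved with this, as 14 of 73 were mural at P42 and 0 of 70 and 0 of 34 at P56, and the median UMIs over the 5 genes of the rule were 41 against 14 and 11. With the mural members left out, 19 of the 24 were lower at P56 (9.59% of all genes were). The 5 genes of the rule were lower too, which is a description. Myl9 fell by 2.13 ± 0.36 on the log2 scale (adjusted p = 0.00032), from 3129 CPM to 601 and 328. Epithelial RNA moved with this, as the summed 6 epithelial genes of members were at 294 CPM in the P42 cauda and at 2258 and 2297 at P56, and 5 of the 6 were called higher at P56. Markers of other cell types fell in the same contrast, with 9 of 9 fibroblast genes (median -3.80) and 6 of 6 macrophage and monocyte genes (median -3.51) lower at P56 (6 of 9 and 3 of 6 by DESeq2), and the summed fibroblast genes of members were at 31043 CPM at P42 and at 2471 and 1186 at P56. Mitochondrial genes took 8.54% of UMIs in cauda members at P42 and 17.5% and 19.6% at P56. The remaining cells of the cauda had 10.5%, 17.5% and 15.7%. In these remaining cells the summed 6 epithelial genes were at 557 CPM at P42 and at 2404 and 2572 at P56. The summed immediate early and dissociation genes of cauda members were at 21410 CPM at P42 and 9426 and 9654 at P56. Their summed erythroid genes were at 4659, 61.9 and 844 CPM. The part of these other RNAs in the lower muscle genes was not tested. In the caput 1 of the 24 contractile genes was lower at P56 and none was higher (median -0.45), and in the corpus 1 was lower and none was higher (median -1.14). DESeq2 called none of the 24 in either segment, with no adjusted p for 17 and 11 of them.

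Genes that members express more than the remaining cells, with the P56 pools of the fit on the same side of P42, were then listed. They numbered 8 for the caput, 16 for the corpus and 257 for the cauda, all lower at P56. For the corpus only P56 replicate 1 was in the fit, so its genes were checked against 1 P56 pool. The P42 libraries entered the ratio that chose these genes, and a gene can pass through its P42 level alone, so nothing is read from their shared direction. In the caput these included Eln, elastin, at 160.1 CPM at P42 and 15.5 and 17.5 at P56 (-3.00 ± 0.47, adjusted p = 0.005). Eln was also lower at P56 in the remaining cells of the caput, at 34.2 CPM at P42 and 3.45 and 3.32 at P56, and in cells with fibroblast markers, at 98.4 CPM and 35.96 and 22.1. Rrad, an inhibitor of calcium channels, was at 97.9 CPM in caput members at P42 and at 18.1 and 13.2 at P56 (-2.30 ± 0.48, adjusted p = 0.0201), and at 11.2, 3.96 and 6.01 CPM in the remaining cells. Iapp was also called, but 146 of its 157 UMIs in the P42 caput were in 1 member. In the corpus, where 15 members stand for P56, Cped1, Rgs4 and Myocd had 29, 26 and 24 UMIs at P42 and 0 in P56 replicate 1. Against a floor of 3 counts this makes P42 at least 5.95-fold, 5.34-fold and 4.93-fold higher than that library. Rgs4 is a gene of the mural list, with 139 UMIs in the mural members and 17 in the other members of the P42 libraries, while the P56 replicate 1 corpus held no mural member. In the cauda Ank1 and Ssh1 had 21 and 16 UMIs at P42 and 0 in both P56 libraries, at least 15.1-fold and 11.5-fold higher at P42. Immediate early and dissociation genes were lower at P56 in the caput, where 12 of 16 were called (0.644% of all genes were). DESeq2 called 6 of 16 and gave no adjusted p for 9. Fos, for example, was at 3658 CPM at P42 and 829 and 999 at P56. The summed 16 genes were at 13756 CPM in caput members at P42 and 3002 and 4300 at P56. They were lower at P56 in the remaining cells of the caput too, at 11366, 2463 and 2848 CPM.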

How the data were processed

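The authors dissociated each segment, made GEXSCOPE libraries and deposited 1 table of UMI counts for all 9 libraries, with 32195 genes and whole numbers throughout. The submitters' processing notes name STAR 2.7.3a, UMI-tools and GRCm38.p6. Of 44869 barcodes, 42087 were kept here (300 to 4000 genes, at most 20000 UMIs, under 50% mitochondrial UMIs). Members had 53352 to 1093290 UMIs per library in all, which limits low genes, and intervals and floors cover counting error only. Doublets were not called.

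Counts were summed over the members of each library with at least 10 and tested with edgeR 4.0.16 in R 4.3.3 (filterByExpr, TMM, quasi-likelihood, Benjamini-Hochberg over all genes tested), with segment and pool as terms. Genes were called at an adjusted p under 0.05 where the log2 difference reached 1. Segment differences were compared between members and other cells by an interaction term with library as a block, and ages within segments without a pool term. Shares were compared by exact permutation of segments within pools. The pool was kept as a block because its 3 segments were dissected from shared animals. The 7 same-pool pairs correlated at 0.105 to 0.529 in their deviations from segment means, but the 4 pairs between the P56 pools did so at 0.132 to 0.416, so the correlations do not set these pools apart. Ratios of members to remaining cells are descriptions of means over 8 libraries. The test was tried on simulated counts. The members, lists and tests were chosen with earlier results of these data known. Alternatives were DESeq2 1.42.0, other filters and scaling, stricter rules, each pool left out and, added after seeing the data, the P42 cauda library left out.

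Named genes were called genes at least 2 times as high in members as in the remaining cells (up to 8 per segment). The highest and lowest segment also had to keep their order in every pool where both libraries had at least 10 members. An order that involves the corpus was therefore not checked in P56 replicate 2, which applies, for example, to Hoxc9, Sh3bgr, Tnc and Top2a. For ages they were the 3 largest changes per direction and segment with the P56 pools of the fit on one side (only replicate 1 for the corpus). For the description of members they were the 15 highest ratios above 50 CPM. Members of the fixed lists and Hox genes could also be named. Smoc2, Sh3bgr, Tnc, Top2a and the genes outside the list in the mural comparison were chosen after their values were seen where they fall outside this rule. A few genes that met these rules are not reported here.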

Additional observations from a re-analysis of the deposited data

Results flagged for a closer look

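The caput against cauda difference of members differed from that of the remaining cells of the same libraries for 220 genes (edgeR's quasi-likelihood interaction test). Among 10 of the genes named in the report, the log2 difference was 3.30 for Hoxc8, 4.67 for Hoxc9, 2.96 for Hoxc6, 2.77 for Cldn11, 2.91 for Cyp1b1 and 3.27 for Fbln5, all more toward the caput in members. It was -3.79 for Hoxa10, -1.62 for Sh3bgr, -1.22 for Smoc2 and -5.04 for Actg2, all more toward the cauda in members. Without the P42 pool 52 genes were called, and of these 10 named genes only Actg2 (-3.77) and Hoxc9 (3.95) stayed below an adjusted p of 0.05. Without the P42 cauda library alone 73 were called, and of the 10 named genes Actg2 (-3.77), Hoxa10 (-3.96), Hoxc9 (3.35) and Smoc2 (-1.54) stayed below it. Other genes named in the report were also called. Of these, Igfbp5 and Nr2f2 stayed called in both of these settings, and Eln and Lama2 did not. Groups of 3 libraries are too small for a test of single outlying libraries.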

How the results depend on the processing

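Leaving out 1 pool moved the caput minus cauda share of members between -0.199 and 1.06 percentage points (0.612 with all pools), with the reversal to -0.199 when the P42 pool was left out. The mitochondrial difference ranged from -11.4 to -5.23 percentage points (-8.01 with all pools), at p = 0.167 by exact permutation, the smallest that 2 pools allow. The 341 segment genes became 645 without the filter on low counts, 218 with at least 15 UMIs over the 5 genes and 27 when only genes 2 times as high in members were tested, and ranged from 215 (without P56 replicate 1) to 652 (without P42) with 1 pool left out. In the same order of settings, the 379 caput against cauda genes became 589, 257 and 26 (216 to 693), the 171 caput against corpus genes 278, 84 and 5 (94 to 237), and the 31 corpus against cauda genes 110, 10 and 7 (11 to 78). Without the P42 cauda library alone, an alternative added after seeing the data, these 4 counts were 597, 611, 286 and 147, 73 genes differed from the remaining cells and 5 from cells with fibroblast markers. Without the pool block, which sets the pairing aside, the counts were 182, 206, 108 and 0. The 220 genes that differed from the remaining cells ranged from 52 to 226, and the 5 against cells with fibroblast markers from 3 to 52. For ages, no filter gave 120 genes in the caput (65 in the report), and DESeq2 gave 37 for the caput, 56 for the corpus and 242 for the cauda (123 and 1373 in the report for the last 2). Averaged over segments, an alternative added after seeing the data, age gave 519 genes, and 68 without P56 replicate 1 or 299 without replicate 2. The cause of these moves was not tested, other than the fewer genes or libraries that a setting tests. DESeq2 gave 294 segment genes, 278 of them shared, and leaving out the mural group gave 314, 304 of them shared. Among named genes, 33 values fell short of the threshold, 4 came to pass it (all Actg2, caput against cauda), and no caput against cauda difference that was called changed direction. Differences that were not called did: Top2a (-0.79) was 0.40 without the mural group and 0.85 without P42 (0.67 without its cauda alone), and Sh3bgr (-0.62) was 0.13 without P42 (0.05 without its cauda alone). A stricter rule without epithelial or fibroblast genes could not be fitted, nor could age with a pool left out in single segments or with a pool block.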
